A study of Mus musculus with 6 samples.

Results

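Immediate early genes outside the AP-1 family were followed in liver RNA from mice with concanavalin A hepatitis, as a fixed list of 10 symbols: Egr1, Ier2, Ier3, Ier5, Nr4a1, Klf2, Klf4, Klf6, Myc and Csrnp1. All 10 stand in the deposited table of 14669 rows, each on 1 row, and all 10 had a mean of at least 1 FPKM (counted fragments scaled to the length of the gene and to the total of the library) and were tested. The libraries came from livers of wild-type male C57BL/6J mice aged 8 weeks. All of the mice had received 25 µg of a pLKO hairpin plasmid by hydrodynamic injection, which pushes DNA into liver cells with a large, fast intravenous volume (here 2.5 ml of saline), and 15 mg/kg of concanavalin A (ConA, a lectin that activates T cells) on day 3. Livers were taken 6 h after ConA. The scramble group (3 libraries, Sc3, Sc4 and Sc5) had the control plasmid plko-scramble, and the shBicd2 group (3 libraries, sh1, sh3 and sh6) had plko-shBicd2, directed at the dynein adaptor gene Bicd2. No group went without ConA or without a plasmid, so the values hold the difference between plasmids at a single time and not the induction of these genes. Hydrodynamic delivery reaches only part of the liver cells, and the RNA is of whole liver, in which fewer cells of a type and less RNA per cell cannot be told apart.

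Immediate early genes are transcribed within minutes of a stimulus, from transcription factors already present in the cell such as SRF with its ternary complex factors, CREB and NF-kB, and need no new protein. Their mRNAs and proteins are short-lived, so their level follows recent signalling. Many encode transcription factors that start the next wave of genes. In liver they are known from partial hepatectomy, acute-phase signalling and injury, and are also sensitive to the handling of tissue before it is frozen.

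The libraries held 16.03 to 18.93 M counted reads, as recovered from the steps in the values, and between 22 and 4757 reads stood behind each value of the 10 genes. Bicd2 itself averaged 3.56 ± 0.518 FPKM with the scramble plasmid, against 3.05 ± 0.526 FPKM with shBicd2 (SD, n = 3), and these ranges overlapped (two-sided exact permutation test, p = 0.4; 3 libraries against 3 cannot give a p below 0.1), so the labels are not checked by a lower target. The livers were hepatocyte-rich, with albumin (Alb) at 15373 to 26213 FPKM, and the defining T cell genes Cd3d, Cd3e and Cd3g were at most 0.302 FPKM in any library. The labels do not say that the libraries are from separate animals, so the p-values measure the spread between these libraries, which may be technical.

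All 10 genes had a lower mean in shBicd2 than in scramble, and none passed the test. Their log2 fold changes (shBicd2 minus scramble, on the log2(FPKM + 1) scale) ran from -2.30 for Klf6 to -0.47 for Ier5, with a median of -0.81, and the limma adjusted p ran from 0.195 to 0.459. Over the 10152 genes tested the median was -0.06, 58.6% of fold changes were negative, and 0 genes (0%) passed an adjusted p of 0.05; voom on the recovered reads also called 0. At an unadjusted p below 0.05 there were 5 of the 10 genes (Ier5, Klf2, Klf4, Klf6 and Myc), all lower in shBicd2, against 12.7% of all genes tested (15.7% in either direction, 2.97% higher). In the same 5 genes every shBicd2 library lay below every scramble library, against 18.7% of all genes tested (24.4% in either direction). In the other 5 (Egr1, Ier2, Ier3, Nr4a1 and Csrnp1) the groups overlapped. Library sh6 was below all scramble libraries in 10 of the 10 genes (37.1% of all genes tested), sh1 in 9 (41.5%) and sh3 in 6 (56.1%).

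**Figure D1:**
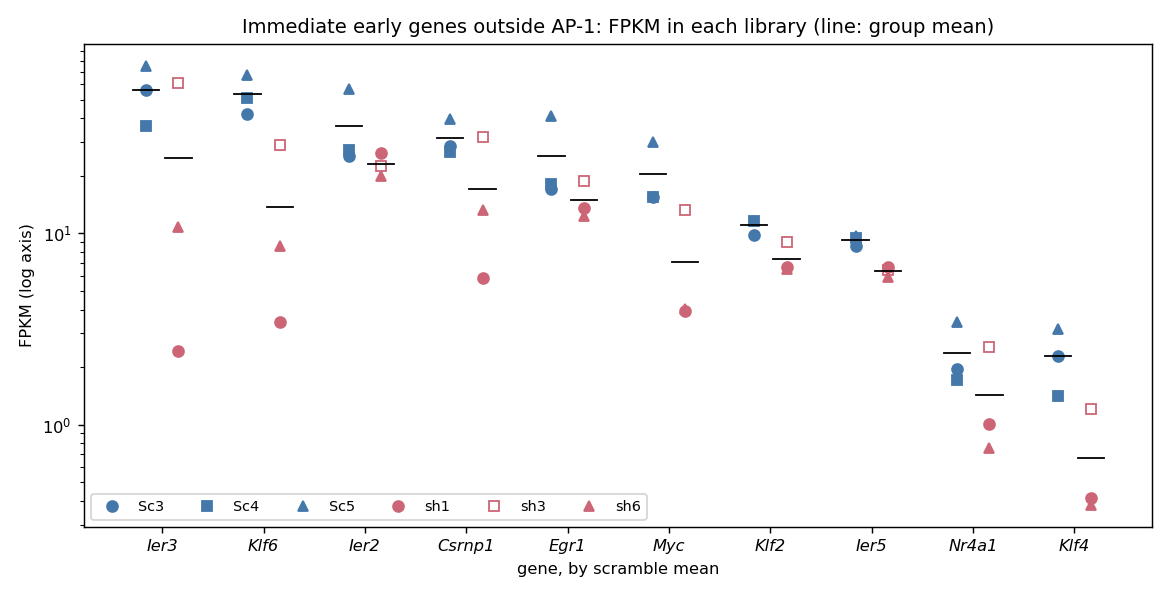
FPKM (log axis) of the 10 genes in each library, ordered by scramble mean; blue points are scramble and red points shBicd2, the open square is sh3, and black lines are group means (n = 3). Sc5 is the highest of the 6 for all 10 genes, and the spread of the shBicd2 group is widest for Ier3, from 2.42 to 61.0 FPKM.

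Ordered by the scramble mean ± SD (n = 3), which is per length and so comparable between genes, Ier3 (55.9 ± 19.2 FPKM) and Klf6 (53.5 ± 12.98 FPKM) were highest. Next came Ier2 (36.6 ± 17.8), Csrnp1 (31.6 ± 7.17), Egr1 (25.3 ± 13.5), Myc (20.4 ± 8.37), Klf2 (11.0 ± 1.04) and then Ier5 (9.22 ± 0.590), Nr4a1 (2.37 ± 0.939) and Klf4 (2.29 ± 0.881 FPKM). From Ier3 to Myc each gene's scramble range overlapped with that of the next gene, as did the ranges of Nr4a1 and Klf4. Myc lay above Klf2, Klf2 above Ier5 and Ier5 above Nr4a1 with no overlap. In shBicd2 the mean of Klf6 was the fifth in the order and that of Ier2 the second. The shBicd2 means of these were 13.7 ± 13.4 and 23.0 ± 3.27 FPKM, beside 24.7 ± 31.7 for Ier3, where the SD was larger than the mean, and 6.36 ± 0.386 for Ier5 (SD, n = 3).

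Egr1 encodes a zinc finger transcription factor and is a classical target of ERK signalling through SRF (GRCm38 chromosome 18, 34859823 to 34864984, plus strand). In library order Sc3, Sc4, Sc5 and sh1, sh3, sh6, used throughout, Egr1 was at 17.1, 18.0 and 40.9 FPKM with the scramble plasmid, against 13.7, 18.8 and 12.4 FPKM with shBicd2. Library Sc5 was thus 2.33 times the mean of Sc3 and Sc4, and sh3 lay inside the scramble range. The log2 fold change was -0.63 ± 0.34 (SE), with a limma adjusted p of 0.415, and it was -0.24 without Sc5.

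Nr4a1 encodes an orphan nuclear receptor (also called Nur77) that T cell receptor signalling induces quickly in lymphocytes (chromosome 15, 101254269 to 101274795, plus strand). Nr4a1 was at 1.95, 1.72 and 3.45 FPKM with the control plasmid, against 1.014, 2.54 and 0.753 FPKM under shBicd2, from 50 to 194 reads. Library sh3 was above Sc3 and Sc4, and sh1 and sh6 were below all scramble libraries. Its difference of -0.50 ± 0.31 in log2 (SE; limma adjusted p = 0.459) became -0.29 without Sc5, -0.30 without sh6 and -0.81 without sh3, and -0.86 with voom on reads, which has no added FPKM.

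Of their close relatives, Egr2 was at 2.03, 1.43 and 1.96 FPKM under plko-scramble, against 0.129, 1.51 and 0.513 FPKM under plko-shBicd2, with sh3 inside the scramble range (limma adjusted p = 0.262) and only 8 reads in sh1. Egr3, Nr4a2 and Nr4a3 had at most 38 reads in any library and were not tested. The EGR corepressor Nab1 was at 23.0 to 26.3 FPKM with the scramble plasmid, against 18.0 to 18.7 FPKM with shBicd2, a narrow difference with no overlap between groups (limma adjusted p = 0.226). Nab2, the other corepressor and itself an EGR target, was highest in sh1, at 11.0 FPKM against 3.38 to 5.96 FPKM in scramble, with 3.50 and 6.20 FPKM in sh3 and sh6. The receptors RXRA and RXRB, which pair with NR4A1, had log2 fold changes of -0.13 and -0.26 (genes Rxra and Rxrb; limma adjusted p = 0.774 and 0.553).

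The Kruppel-like factors share a zinc finger domain that binds GC-rich and CACCC elements. Klf6, induced in injured liver and in stellate cells, had the largest difference of the 10 genes (chromosome 13, 5861482 to 5870394, plus strand). Klf6 was at 42.0, 50.9 and 67.6 FPKM with the control plasmid, against 3.45, 28.9 and 8.64 FPKM under shBicd2, or 6.46%, 54.0% and 16.2% of the scramble mean in sh1, sh3 and sh6. All shBicd2 libraries were lower, and sh3 was 4.78 times the mean of sh1 and sh6. Its log2 fold change was -2.30 ± 0.63 (SE; limma adjusted p = 0.198), and it was -1.66 without sh1 and -3.03 without sh3.

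Klf4, a barrier and growth-arrest factor also found in endothelium and monocytes, was the lowest of the 10 genes in level (chromosome 4, 55527143 to 55532466, minus strand). Klf4 was at 2.29, 1.41 and 3.17 FPKM under plko-scramble, against 0.413, 1.20 and 0.381 FPKM under plko-shBicd2, from 22 to 155 reads. All shBicd2 values were below all scramble values, although sh3 and Sc4 were close. For Klf4 the log2 fold change was -0.98 ± 0.26 (SE; limma adjusted p = 0.195) and was -1.90 with a pseudocount of 0.01, since adding 1 FPKM compresses a gene at this level.

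Klf2, which shear stress and laminar flow sustain in endothelium and which keeps T cells quiescent, differed less and more evenly (chromosome 8, 72319033 to 72321656, plus strand). Klf2 was at 9.80, 11.6 and 11.6 FPKM with the scramble plasmid, against 6.64, 9.03 and 6.49 FPKM with shBicd2. Its shBicd2 libraries were at 60.3%, 82.0% and 59.0% of the scramble mean, with no overlap between groups (log2 fold change -0.53 ± 0.17 SE; limma adjusted p = 0.222). The ratio of Klf6 to Klf2 FPKM within a library does not depend on the scaling between libraries. This ratio was 4.29, 4.39 and 5.82 in scramble and 0.52, 3.20 and 1.33 in shBicd2, with no overlap, and it was chosen after the values were seen. The ratios of Klf4 to Klf2, Ier3 to Ier5 and Csrnp1 to Egr1 were computed as well, and each overlapped between groups.

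The stretches before the start sites of these 3 Kruppel-like factor genes and of Ier3 are shown because Klf6 and Ier3 had the largest differences and Klf2 one of the smallest. They are the 250 bases before the RefSeq start on GRCm38.p6, written 5′ to 3′ on the gene's strand, and capitals mark matches to the motifs named after them.
Klf6, chr13:5861239-5861488, plus strand: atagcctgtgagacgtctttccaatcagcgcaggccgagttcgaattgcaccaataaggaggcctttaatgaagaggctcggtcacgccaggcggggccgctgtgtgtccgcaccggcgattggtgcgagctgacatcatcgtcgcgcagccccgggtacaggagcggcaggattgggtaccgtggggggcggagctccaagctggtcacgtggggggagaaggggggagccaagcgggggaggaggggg
Klf2, chr8:72318812-72319061, plus strand: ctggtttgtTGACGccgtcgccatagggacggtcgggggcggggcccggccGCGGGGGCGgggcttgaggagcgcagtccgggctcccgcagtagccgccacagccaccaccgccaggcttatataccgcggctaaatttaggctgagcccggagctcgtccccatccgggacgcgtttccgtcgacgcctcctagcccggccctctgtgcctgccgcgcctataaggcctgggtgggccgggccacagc
Klf4, chr4:55532476-55532725, minus strand: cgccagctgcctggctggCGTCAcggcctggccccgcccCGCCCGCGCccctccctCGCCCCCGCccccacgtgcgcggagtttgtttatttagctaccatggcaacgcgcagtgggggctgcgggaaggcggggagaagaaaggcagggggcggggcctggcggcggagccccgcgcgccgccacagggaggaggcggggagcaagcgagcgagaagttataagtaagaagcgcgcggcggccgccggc
Ier3, chr17:35821463-35821712, plus strand: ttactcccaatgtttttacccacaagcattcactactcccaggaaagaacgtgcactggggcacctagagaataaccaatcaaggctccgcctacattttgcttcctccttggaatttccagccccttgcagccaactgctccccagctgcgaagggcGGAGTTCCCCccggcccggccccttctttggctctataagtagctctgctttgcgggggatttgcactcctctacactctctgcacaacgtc

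RefSeq windows of 300 bases (250 before to 50 after a start) were found for 7 of the 10 genes, in 10 windows, of which Csrnp1 has 4. Windows of Egr1, Ier2 and Myc were not used here. Both strands were searched for 7 motifs, and a match is only a match of letters. TGACG, the core of the cyclic AMP response element and part of its full form, was in 7 of the 10 windows, against 20.8% of all 32851 windows; these are windows of Klf2, Klf4, Nr4a1 (4 matches) and Csrnp1, whose 4 windows all hold it, and the full form TGACGTCA was in none (1.79% of all windows). The EGR1 motif GCGNGGGCG was in 3 of the 10 windows, of Klf2, Klf4 and Nr4a1 (5.55% of all windows), with 2 matches in Klf4. An NF-kB motif was in 2 of the 10, of Ier3 and Nr4a1 (8.46% of all windows); in Ier3 it starts at -92 from the start site. The CArG box of SRF was in none of the 7 genes' windows (1.63% of all windows) and the TATA motif TATAAA in none (13.6%), while CACCC was in 4 of the 10, of Klf2 and Csrnp1 (57.5%). The Klf6 window and the Ier5 window held none of the 7 motifs. The capitals above mark TGACG, the EGR1 motif and the NF-kB motif. Klf2 and Klf4 thus share the first 2 of these motifs, and their shBicd2 means were 67.1% and 29.1% of the scramble means.

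Of the other Kruppel-like factors, 10 were tested, 8 with negative and 2 with positive fold changes, with a median of -0.63, and 0 passed the adjusted threshold. The shBicd2 libraries lay below all scramble libraries for 6 and above them for 2 (18.7% and 5.70% of all genes tested). Klf11, a TGF-beta induced factor, was at 4.65, 3.58 and 4.398 FPKM with the control plasmid, against 0.896, 1.64 and 1.81 FPKM under shBicd2 (limma adjusted p = 0.152). Klf13 was at 8.24 to 9.14 FPKM under plko-scramble, against 3.16 to 6.05 FPKM under plko-shBicd2 (limma adjusted p = 0.198). Klf15, a fasting and glucocorticoid regulated factor of amino acid breakdown in liver, was higher in every shBicd2 library, at 20.4 to 29.1 FPKM under the control plasmid and 35.2 to 51.9 FPKM under the hairpin (log2 fold change 0.76 ± 0.21 SE; limma adjusted p = 0.198). Of 6 tested genes known as targets of Klf2 or Klf4 in endothelium and lymphocytes, 4 were negative and 2 positive. Thrombomodulin (Thbd) was at 5.47, 5.89 and 8.71 FPKM with the scramble plasmid, against 1.25, 4.72 and 2.63 FPKM with shBicd2 (limma adjusted p = 0.222), and the endothelial nitric oxide synthase gene Nos3 overlapped between groups (limma adjusted p = 0.704).

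Myc encodes the growth regulator MYC, which drives ribosome assembly and cell cycle entry (chromosome 15, 61985391 to 61990374, plus strand). Myc was at 15.6, 15.5 and 30.1 FPKM with the control plasmid, against 3.95, 13.3 and 4.01 FPKM under shBicd2. Libraries sh1 and sh6 were nearly equal, at 19.4% and 19.7% of the scramble mean, and sh3 was at 65.2%, just under the lowest scramble library. For Myc the log2 fold change was -1.53 ± 0.46 (SE; limma adjusted p = 0.205). Within a library Myc stood at 0.91, 0.86 and 0.73 of Egr1 in scramble and at 0.29, 0.71 and 0.32 in shBicd2 (chosen after the values were seen), so that sh3 was only just outside the scramble range.

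The genes around Myc had smaller median differences than Myc itself. Of 12 tested partners and antagonists, 7 were negative and 5 positive, a median of -0.23 in log2, and 0 past the threshold. The antagonists Mnt (5.21 to 7.58 FPKM with the scramble plasmid, against 2.21 to 3.82 with shBicd2) and Mxi1 (3.54 to 5.07 against 1.39 to 2.93 FPKM) had the smallest p (limma adjusted p = 0.185 and 0.2). Max, the obligate partner, was at 11.2 to 14.0 FPKM under plko-scramble, against 8.54, 13.1 and 10.9 FPKM under plko-shBicd2. Of 26 tested MYC targets in growth and ribosome assembly, 18 were negative and 8 positive, with a median of -0.12 and 0 past the threshold. Odc1, the first enzyme of polyamine synthesis, was at 49.1, 42.5 and 66.6 FPKM with the scramble plasmid, against 13.3, 33.6 and 25.1 FPKM with shBicd2 (limma adjusted p = 0.2), and the cyclin gene Ccnd2 at 1.69 to 2.15 against 0.769 to 1.06 FPKM (limma adjusted p = 0.167).

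Ier3, an NF-kB induced gene that modulates survival and ERK signalling, had the widest range of the 10 genes (chromosome 17, 35821684 to 35822923, plus strand). Ier3 was at 56.1, 36.5 and 75.0 FPKM with the control plasmid, against 2.42, 61.0 and 10.8 FPKM under shBicd2. Library sh3 was at 109% of the scramble mean and sh1 at 4.33%, so the groups overlapped through sh3 alone. The log2 fold change was -2.01 ± 0.94 (SE; limma adjusted p = 0.359), and it was -1.014 without sh1 and -3.10 without sh3.

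Csrnp1, a nuclear protein first found as an AXIN1-induced gene, also had sh3 near the scramble mean and sh1 lowest (chromosome 9, 119971163 to 119984658, minus strand). Csrnp1 was at 28.5, 26.5 and 39.8 FPKM under plko-scramble, against 5.82, 31.7 and 13.3 FPKM under plko-shBicd2, with sh3 at 100.3% of the scramble mean. The log2 fold change was -1.13 ± 0.52 (SE; limma adjusted p = 0.356), -0.57 without sh1 and -1.70 without sh3. An antisense RNA, 1700019L13Rik, overlaps 224 bases of its exons, and since the strand setting of the counting is not given, reads from the 2 cannot be told apart. Its relative Csrnp2 had 39 to 76 reads in each library and was not tested.

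Ier2 and Ier5 encode related nuclear proteins and differed little. Ier2 (chromosome 8, 84661331 to 84662852, minus strand) was at 25.5, 27.2 and 57.1 FPKM with the scramble plasmid, against 26.4, 22.5 and 19.9 FPKM with shBicd2, with Sc5 apart from the other 5 libraries. Its difference of -0.56 ± 0.31 in log2 (SE; limma adjusted p = 0.423) was -0.20 without Sc5. Ier5 (chromosome 1, 155096361 to 155099636, minus strand), which activates heat shock factor HSF1, was the most even of the 10 genes. Ier5 was at 8.54, 9.48 and 9.63 FPKM with the control plasmid, against 6.68, 6.47 and 5.93 FPKM under shBicd2, a difference of -0.47 ± 0.13 in log2 (SE; limma adjusted p = 0.198) that leaving out 1 library moved only between -0.52 and -0.43. Within a library Ier3 stood at 2.20, 1.34 and 1.31 times Ier2 in scramble and at 0.092, 2.704 and 0.54 times in shBicd2, so the ratio overlapped between groups through sh3 (chosen after the values were seen).

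**Figure D2:**
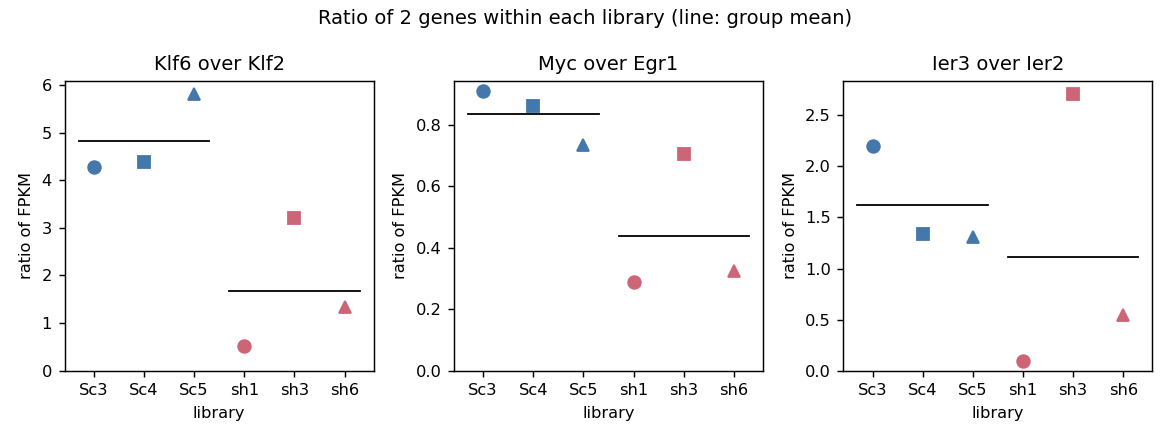
Ratio of the FPKM of 2 genes within each library, for Klf6 over Klf2, Myc over Egr1 and Ier3 over Ier2; blue points are scramble, red points shBicd2 and lines group means (n = 3). The ratio of Klf6 to Klf2 is 4.29 to 5.82 in scramble and 0.52 to 3.20 in shBicd2, and sh3 is the highest shBicd2 library in all 3 panels.

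In sh1, 5 of the 10 genes (Ier3, Klf6, Klf4, Csrnp1 and Myc) were at or under 20% of the scramble mean, and the other 5 were at 42.7% to 72.5%. In sh6, 4 genes were at or under 20% (Klf6, Klf4, Ier3 and Myc), and in sh3 there were 0. The share of all genes tested that lay at or under 20% was not computed. Library sh3 was the highest of the shBicd2 libraries in 8 of the 10 genes, against 22.1% of all genes tested, the exceptions being Ier2 and Ier5. Library Sc5 was the highest of the scramble libraries in 10 of the 10, against 29.5% of all genes tested. The ratio of Sc5 to the mean of Sc3 and Sc4, taken gene by gene, had a median of 1.67 over the 10 genes and of 0.969 over all genes tested, and it was 1.07 for Ier5 and 1.09 for Klf2 but 2.33 for Egr1 and 2.17 for Ier2.

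**Figure D3:**
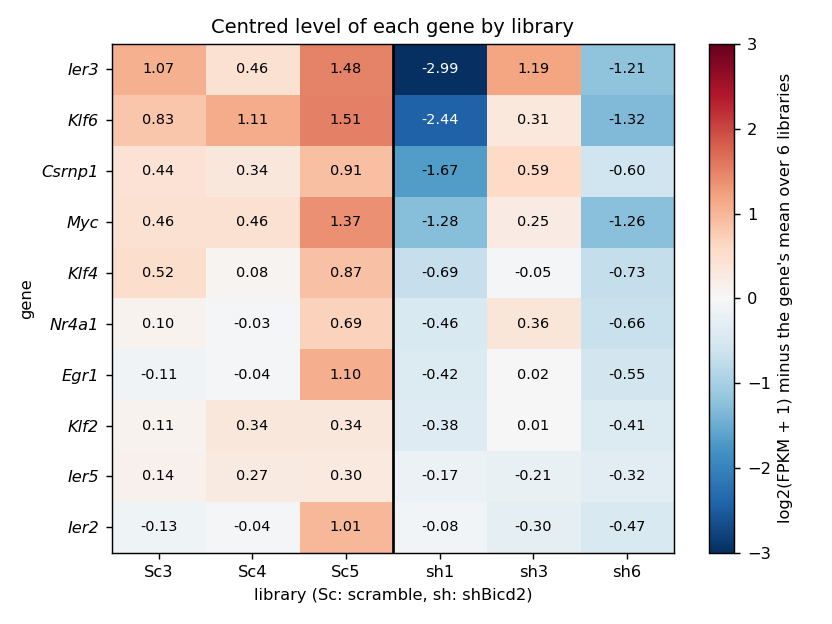
Each gene's log2(FPKM + 1) in each library (columns) minus its mean over the 6 libraries, with genes (rows) ordered by their value in sh1; blue is lower and red higher than the gene's mean. Ier3 (-2.99) and Klf6 (-2.44) are lowest in sh1, Ier2 is near its mean there (-0.08), and the column of Sc5 is the highest of its row for all 10 genes.

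The likeness of 2 genes was measured as the root mean square difference of these centred profiles over the 6 libraries, a description in which a gene that varies little is close to others that vary little. Klf2 and Ier5 were closest (0.13), then Egr1 and Ier2 (0.20) and Egr1 and Nr4a1 (0.24), and Ier2 and Ier3 were farthest (1.48). The 10 tested genes nearest to the mean profile, outside the 10 and outside AP-1, were Gys1 (0.070), Nfkbiz (0.074), Bcl6, Hk2, Egln1, Kdm3a, Arhgef3, Btc, Thbd and Itgb3 (0.13). Gene models without a proper symbol, pseudogenes, immune receptor segments and repeated rows of a symbol were left out of this ranking. Gys1, glycogen synthase, was at 4.10, 3.81 and 7.59 FPKM under plko-scramble, against 1.02, 3.43 and 1.40 FPKM under plko-shBicd2. Nfkbiz, an atypical IkB protein that is also in the list of other immediate early genes, was at 19.7, 19.0 and 33.2 FPKM with the scramble plasmid, against 6.52, 20.1 and 9.31 FPKM with shBicd2. Hk2 (hexokinase), Egln1 (an oxygen-sensing prolyl hydroxylase) and Kdm3a (a histone demethylase) are known hypoxia-inducible genes.

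Other immediate early genes outside AP-1 were taken from a list of which 44 were tested (Klf9, Klf10 and Egr2 also stand in lists above, and Maff in the AP-1 list). Of the 44, 42 had negative and 2 positive fold changes, with a median of -0.84, 21 were lower at an unadjusted p below 0.05 (12.7% of all genes tested), and 0 passed the adjusted threshold in limma. By smallest p came Zfp36l2, an mRNA decay factor, at 26.9, 23.9 and 43.1 FPKM with the control plasmid, against 8.34, 16.9 and 9.73 FPKM under shBicd2 (limma adjusted p = 0.17). Btg1, an antiproliferative factor, was at 48.5, 42.9 and 55.7 FPKM under plko-scramble, against 8.75, 29.5 and 11.4 FPKM under plko-shBicd2 (limma adjusted p = 0.179). Maff, a small MAF protein, was at 16.3, 13.7 and 26.7 FPKM with the scramble plasmid, against 1.08, 9.74 and 2.81 FPKM with shBicd2 (limma adjusted p = 0.195). In these 3 genes sh3 was again the highest of the shBicd2 libraries and Sc5 of the scramble libraries. The 2 genes of positive fold change, named after their values were seen, were Hes1 (0.19) and Tob1 (0.26), and their groups overlapped.

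Among AP-1 genes, Fos, Jun and Atf3 also had sh3 as the highest shBicd2 library and Sc5 as the highest scramble library. Fos was at 10.04, 6.35 and 30.5 FPKM with the control plasmid, against 1.61, 4.76 and 1.28 FPKM under shBicd2, and Jun and Atf3 were at 19.4% and 6.55% of the scramble mean in sh6 and at 63.4% and 47.7% in sh3.

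Of the kinases, SRF and its partners that act upstream of immediate early genes, 21 were tested, 19 with negative and 2 with positive fold changes, with a median of -0.31 and 0 past the threshold. The groups did not overlap for 13 of them, all lower in shBicd2 (18.7% of all genes tested). Atf1, a CREB family factor, was at 10.6 to 12.8 FPKM under plko-scramble, against 6.05, 6.08 and 6.99 FPKM under plko-shBicd2 (limma adjusted p = 0.152). Srf was at 10.1, 10.1 and 12.1 FPKM with the scramble plasmid, against 5.83, 6.89 and 6.92 FPKM with shBicd2 (limma adjusted p = 0.169). In Atf1 and Srf the shBicd2 libraries lay close together, unlike in Ier3 or Klf6, where sh3 was apart. Of 10 tested SRF targets of the cytoskeleton, 9 were negative, with a median of -0.47 and 0 past the threshold. Vinculin (Vcl) was at 5.61 to 7.21 FPKM with the control plasmid, against 1.26, 3.19 and 1.85 FPKM under shBicd2 (limma adjusted p = 0.152), and cytoplasmic actin Actg1 was at 211, 284 and 444 FPKM under plko-scramble, against 66.5, 157 and 56.2 FPKM under plko-shBicd2 (limma adjusted p = 0.179). Of 9 tested genes known as targets of EGR1 or KLF6 or linked to them, 8 were negative, with a median of -0.70 and 0 past the threshold. Tissue factor (F3) was at 3.20 to 5.33 FPKM with the scramble plasmid, against 1.58, 1.52 and 0.878 FPKM with shBicd2 (limma adjusted p = 0.152), and Icam1, an adhesion molecule, was at 58.7, 69.3 and 82.9 FPKM with the control plasmid, against 11.4, 49.0 and 16.8 FPKM under shBicd2 (limma adjusted p = 0.2).

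Summed markers of several liver cell types differed between libraries too, and their part in the results was not tested. The summed level of 9 endothelial markers was 27.8 to 37.0 FPKM in scramble and 19.2 to 25.7 FPKM in shBicd2, with 3 of 6 tested members negative. Without Lyve1, the most abundant of them, the endothelial sums overlapped (19.0 to 25.3 and 14.9 to 24.0 FPKM). Of the 9, Lyve1, Pecam1, Cdh5 and Vwf were lower in every shBicd2 library than in any scramble library (18.7% of all genes tested). Stab1, Stab2, Clec4g, Kdr and Tek overlapped between groups and were highest in sh1. The sum of 8 stellate cell and fibroblast markers was 41.8 to 52.5 and 31.7 to 33.9 FPKM, with 6 of 6 negative. The 7 monocyte and macrophage markers summed to 136 to 206 FPKM in scramble and to 81.0, 137 and 84.4 FPKM under shBicd2 (same order), mostly from Cd14, with 7 of 7 negative. Without Cd14 the sums of the other 6 overlapped, at 14.3 to 17.6 FPKM in scramble and 18.4, 10.2 and 9.31 FPKM in shBicd2, and sh1 was the highest library. Itgam and Adgre1 were lower in every shBicd2 library than in any scramble library (18.7% of all genes tested). Cd14 itself overlapped between groups, as did Ly6c2, Ccr2, Fcgr1 and Csf1r, of which each was highest in sh1 except Cd14. The 7 neutrophil markers summed to 367 to 497 FPKM in scramble and to 417, 295 and 147 FPKM under shBicd2 (same order), with 7 of 7 negative. The sum of sh1 lay inside the scramble range and came mostly from S100a8 and S100a9, at 119.6% and 103.9% of the scramble mean in sh1. Ly6g, Csf3r, Cxcr2 and Mmp8 were lower in every shBicd2 library than in any scramble library (18.7% of all genes tested). In sh1 these were at 49.1%, 62.9%, 47.6% and 49.1% of the scramble mean. The 6 Kupffer cell markers (5 of 5 tested negative) overlapped in sum (47.7 to 66.3 and 28.6 to 54.8 FPKM). The 8 hepatocyte markers (3 of 8 negative) also overlapped in sum (23354 to 29181 and 28650 to 38021 FPKM). Without Alb the hepatocyte sum was higher in every shBicd2 library (7981 to 8160 and 9707 to 11808 FPKM). Of the 8, only Apoa1 and Ttr were higher in every shBicd2 library than in any scramble library (5.70% of all genes tested). In sh1, Tat, Cps1, Cyp2e1 and Hnf4a were at 54.3%, 69.5%, 60.8% and 64.4% of the scramble mean, and Alb and Ass1 at 109% and 110%. The 8 T cell markers found summed to 4.93 to 6.17 FPKM in scramble and 2.83 to 4.16 FPKM in shBicd2. This lower sum came from Cd28 (3.57 to 4.77 FPKM in scramble and 0.197, 2.44 and 2.58 FPKM in shBicd2), and without it the other 7 overlapped, at 1.36 to 1.404 FPKM in scramble and 2.64, 1.18 and 1.58 FPKM in shBicd2. Of these, Cd3e was higher in every shBicd2 library than in any scramble library, but from only 5 to 10 reads. Cd8a (9 to 49 reads) and Lck (13 to 36 reads) were highest in sh1, Cd3g in Sc5 and Cd4 in sh3. Of the T cell markers only Cd28 was tested. The 5 NK cell markers found summed to 4.396 to 5.20 FPKM in scramble and 2.92 to 4.33 FPKM in shBicd2, mostly from Gzma. Without Gzma the other 4 overlapped in sum (at most 1.51 and 1.72 FPKM). Gzma and Prf1 were lower in every shBicd2 library than in any scramble library, and Klra8 was higher, from only 5 to 12 reads. Prf1 was at 0.435 to 0.755 FPKM in scramble and 0.210 to 0.403 FPKM in shBicd2, from 9 to 35 reads. Ncr1 was highest in sh1, at 0.604 FPKM against 0.146 to 0.203 FPKM elsewhere, from 4 to 17 reads. The sums of the B cell, cholangiocyte and red blood cell markers overlapped between groups, and sh1 had the highest cholangiocyte sum (135 FPKM, mostly from Spp1, without which the other 3 were at 8.14 to 13.2 FPKM in scramble and 3.51 to 6.76 FPKM in shBicd2) and the lowest red blood cell sum (31.7 FPKM). No marker list had a member past the threshold.

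The count of the 10 genes past the threshold depended on sh3. Without it, 3 of the 10 genes passed an adjusted p of 0.05 in limma, as did 2.85% of all genes tested: Klf6 fell (log2 fold change -3.03 ± 0.36 SE; adjusted p = 0.0295), as did Myc (-2.04 ± 0.30; 0.0364) and Ier3 (-3.10 ± 0.55; 0.0442). Klf4 (adjusted p = 0.0549), Csrnp1 (0.0576) and Klf2 (0.0706) then missed the threshold, and Egr1 and Ier2 had adjusted p of 0.245 and 0.378. Array weights counted sh1 and sh3 at 0.18 and 0.28 and sh6 at 4.67, and Sc3, Sc4 and Sc5 at 3.01, 1.21 and 1.155. The shBicd2 side of that fit thus rested mostly on the single library sh6. With these weights 8 of the 10 passed in limma, as did 26.7% of all genes tested, and Egr1 and Ier2 did not (adjusted p = 0.0928 and 0.11). Leaving out any library other than sh3 left 0 of the 10 past the threshold. In all 15 alternatives every fold change of the 10 genes that could be computed was negative.

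**Figure D4:**
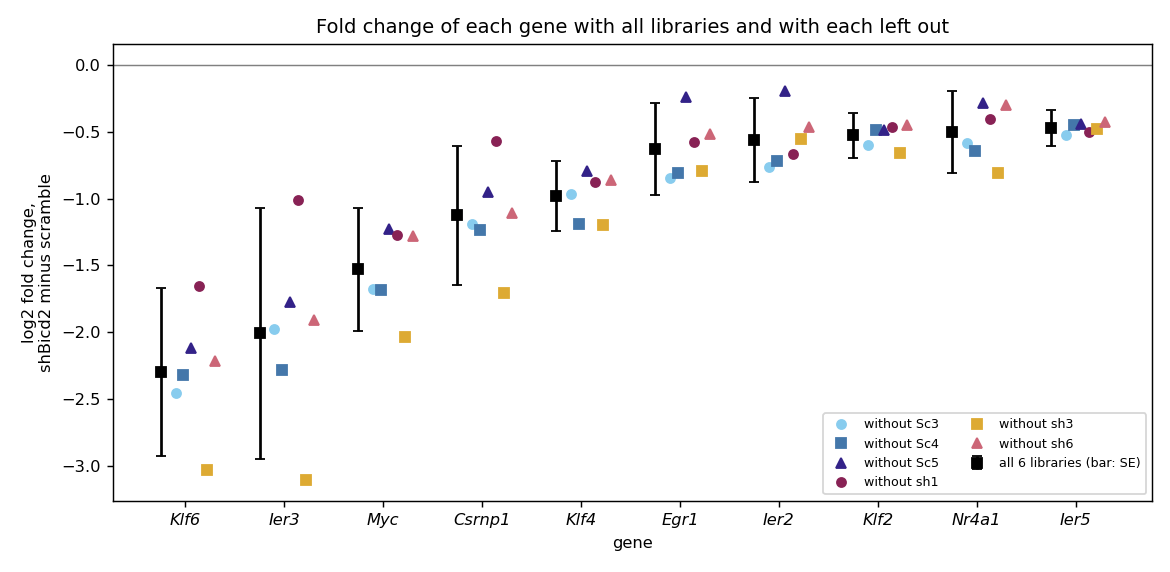
Log2 fold change of the 10 genes (shBicd2 minus scramble, log2(FPKM + 1) scale) with all 6 libraries (black squares, bar ± SE) and with each library left out (coloured points). Without sh3 the values of Klf6 and Ier3 reach -3.03 and -3.10, without sh1 they are -1.66 and -1.014, and Egr1 and Ier2 come nearest to 0 without Sc5.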

How the data were processed

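Liver RNA was purified with Trizol, libraries were made with a TruSeq kit and sequenced on a NovaSeq, per the labels' protocols. The submitters' processing notes list HISAT2 2.0.5, featureCounts 1.5.0-p3 and the mm10 build. Annotation, strand setting and the handling of multiply matching reads: not given in the sources used here. FPKM, computed by the authors, make up the deposited table, with 1 column for each library and every value above 0. FPKM scale to a library's total, so a few abundant genes can shift the rest. A column could be matched to a group by its name, not to a labelled replicate.

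Values were analysed as log2(FPKM + 1) for the 10152 genes averaging 1 FPKM or more, with limma 3.58.1 (eBayes with trend) in R 4.3.3, two-sided, adjusted by Benjamini-Hochberg over all tested genes, at a threshold of 0.05. Reads were recovered from the steps of the values with exon lengths of GENCODE M21 (GRCm38) for 14339 genes; of values under 50 reads, 98.7% to 99.4% (genes of 1 exon) and 97.6% to 97.8% (other genes) in each library lay within 0.02 of a whole read, and higher values cannot be checked this way and were rounded. The limma fit, but not the recovery of reads, was tested on simulated counts with known fold changes. Their dispersion was fixed and not estimated from these libraries, so the simulation does not give the power of the comparison here. The named genes were the members, Bicd2, up to 3 genes of smallest p from each list, Fos, Jun and Atf3, and the 10 genes nearest to the mean profile. Further list members (Egr3, Nr4a2, Nr4a3, Max, Nos3, Csrnp2, Hes1 and Tob1, and single markers) were named after their values were seen. The members and lists were chosen with earlier results of these data known. Alternatives were other pseudocounts (0.1 and 0.01), filters and scalings, array weights, voom on the recovered reads and leaving out each library. Python 3.11.15 and matplotlib 3.10.9 were used for the descriptions and figures.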

Additional observations from a re-analysis of the deposited data

How the results depend on the processing

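Of 148 values of single genes over 15 alternatives, 137 kept their direction and stayed on the same side of the threshold, 11 kept their direction and passed it, and 0 changed direction. The count of the 10 genes past the threshold was 8 with array weights, where 2709 of all genes passed (1859 lower and 850 higher), and 0 to 3 when each library was left out in turn, where 0 to 289 of all genes passed; the counts of 3 and 289 are without sh3. The values past the threshold without sh3 were Ier3, Klf6 and Myc, and with array weights all but Egr1 and Ier2; the cause was not tested. The median log2 fold change of the 10 genes ran from -1.04 (voom) to -0.62 (without sh1). That of all tested genes was -0.16 on the TPM scale and 0.03 after quantile normalization. With a mean FPKM of at least 5, Nr4a1, Klf4 and Bicd2 were not tested. At an unadjusted p below 0.05 the split of all genes was 302 higher and 1291 lower, and 633 and 874 with size factors, 693 and 812 with quantile normalization, 181 and 1768 on the TPM scale, 961 and 1540 without sh3 and 1602 and 2584 with array weights. No paired analysis was possible because the column names do not show which labelled replicate a library is. Depth limits Klf4 most, with 22 and 23 reads in sh6 and sh1.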
